A study of Mus musculus with 8 samples.

Results

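R1 mouse embryonic stem cells that had received siRNA 1 against CnAb1 (CnAβ1) were compared with R1 cells that had received a control siRNA, over all genes that the arrays measured. The comparison took 6 of the 8 samples of the study, 3 Control arrays and 3 siRNA 1 arrays, chosen by their titles, and the other 2 samples had received a second siRNA against the same target, siRNA 2. R1 is an established pluripotent mouse line that forms embryoid bodies, balls of differentiating cells, when it is no longer held in the undifferentiated state. In every sample, Control included, the cells had been differentiated in embryoid bodies for 48 h, and total RNA was taken 48 h after transfection. The labels give no siRNA sequence and do not say whether replicates came from separate cultures, so a p-value here reflects only how these samples spread, and that spread may be technical. Embryoid bodies hold several cell types, and a lower signal from fewer cells of one type cannot be told apart from less RNA in each of those cells.

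Calcineurin is a phosphatase that calcium and calmodulin switch on. It joins a catalytic A subunit (Ppp3ca, Ppp3cb or Ppp3cc) to a regulatory B subunit and is best known for dephosphorylating NFAT transcription factors, which then enter the nucleus. CnAβ1 is a splice variant of the Ppp3cb product with its own carboxy terminus in place of the autoinhibitory domain, and it has been linked to Akt and mTOR signalling rather than to NFAT. The comparison asks how RNA levels differ in cells with this variant targeted as they leave pluripotency.

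Each value below is the log2 of an array's processed spot intensity minus the 75th percentile of that array, so 0 is that percentile and differences between groups are log2 differences. Between 68.0% and 75.1% of 43020 spots were well above background on the 6 arrays, 22408 genes were tested, and precision is limited by how few arrays there are. The arrays lay on 3 slides. Slide 1 held Control 1 and siRNA 1 replicate 1, slide 2 held Control 2 and siRNA 1 replicate 3, and slide 3 held Control 3 and siRNA 1 replicate 2. Of the siRNA 2 arrays, replicate 1 lay on slide 1 and replicate 2 on slide 3, with none on slide 2. On each slide Control took position 1 and siRNA 1 position 2, so position and treatment cannot be told apart. Slide 1 stood apart on the first principal component, which took 42.0% of the variance, and limma's fit found 1280 genes to differ by slide 1 within groups. Every group of genes is therefore also given within slides. All 5 markers of pluripotent cells were well above background on the 6 arrays. Of 5 markers of primitive streak and mesoderm, T, Eomes and Evx1 were well above background on all 6 arrays and Mixl1 and Mesp1 on 2 of 6 each.

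The targeted gene, Ppp3cb, was lower with siRNA 1 on average, and its groups overlapped. Its signal was 0.85, 0.60 and 0.71 in Control replicates 1 to 3 and 0.28, 0.47 and 0.68 in siRNA 1 replicates 1 to 3. The brightest siRNA 1 array lay above the dimmest Control array. The difference was -0.25 with an SE of 0.13, and the exact two-sided permutation test gave p = 0.2 over 20 splits, of which 0.1 is the smallest p that 3 arrays against 3 can give. Within slides 1, 2 and 3 the difference was -0.57, 0.08 and -0.24. The files name this probe by a Ppp3cb transcript, and whether it reads the CnAβ1 variant is not known here, so it checks nothing about that variant.

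For the other subunits, as for Ppp3cb, this exact test could not reach 0.05, and limma called none of them. Ppp3ca, the Aα catalytic subunit, was 1.59, 2.31 and 1.91 in Control and 2.56, 2.32 and 2.27 in siRNA 1, and the groups overlapped. Its difference was 0.45 (exact permutation p = 0.2), made of 0.97 on slide 1, -0.05 on slide 2 and 0.41 on slide 3. Ppp3cc, the Aγ subunit, differed by -0.23 (exact permutation p = 0.5), of which slide 1 gave -0.74 and slides 2 and 3 gave 0.04 and 0.00. Ppp3r1, the B subunit, differed by -0.05 (exact permutation p = 0.5). Rcan1, an inhibitor whose transcription is a common readout of calcineurin and NFAT activity, differed by a fold of 1.00, with slides at 0.33, -0.24 and -0.09. Of 18 listed subunits and regulators 16 were measured, 8 higher and 8 lower, with a median difference of 0.01. Of 11 measured NFAT factors and targets 3 were higher and 8 lower, with a median of -0.08. Nfatc3, an NFAT transcription factor, differed by -0.11 and Vegfa, the endothelial growth factor, by -0.15.

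No gene passed the test of siRNA 1 against Control. With limma's adjusted p under 0.05 as the threshold, 0 of 22408 genes (0%) were called, the smallest adjusted p was 0.400, and limma gave 748 genes an unadjusted p under 0.05, 516 higher and 232 lower with siRNA 1. With quantile normalization the higher share of those genes went from 69.0% to 60.1%, and with normexp background correction followed by quantile normalization (normexp with quantile below, so that both steps differ) to 53.6%. All 3 siRNA 1 arrays lay above all 3 Control arrays for 1070 genes (4.78%) and below them for 640 genes (2.86%), and these shares are the background for every count of that kind below. Of all 22408 genes 12390 (55.3%) were higher on average and 10018 lower, the background for counts of higher and lower genes in a list. By size, 28 genes stood at least 2-fold higher, 16 of them with groups that did not overlap, and 13 stood at least 2-fold lower, 2 of them without overlap. The words higher and lower in what follows describe measured differences, none of which was called.

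**Figure D1:**
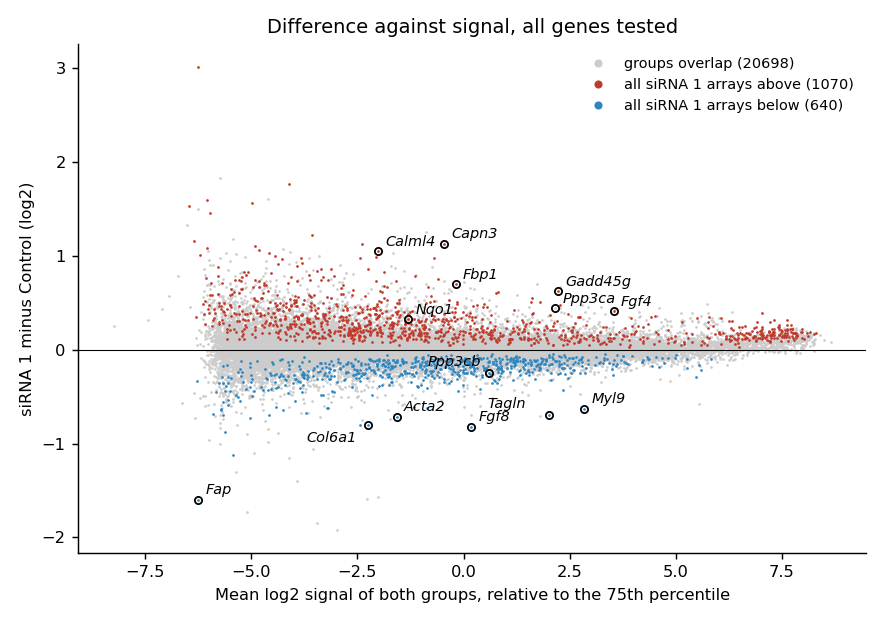
Difference between siRNA 1 and Control (log2) against the mean log2 signal of both groups for the 22408 genes tested, each point 1 gene. Red points are the 1070 genes with all siRNA 1 arrays above all Control arrays and blue points the 640 with all below, and the widest scatter lies among the dimmest genes.

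The gene with the smallest p was Fbp1, which encodes fructose-1,6-bisphosphatase, an enzyme of gluconeogenesis that opposes glycolysis. Fbp1 was -0.59, -0.55 and -0.48 in Control and 0.14, 0.15 and 0.19 in siRNA 1. The 2 groups lay far apart against their own spread, and slides 1 to 3 gave 0.74, 0.73 and 0.63, both of which its choice by smallest p in these same arrays makes likely. The difference was 0.70 with an SE of 0.07, a fold of 1.63, with limma's adjusted p of 0.400. Fbp2, the muscle form of the enzyme, was also higher in every siRNA 1 array than in any Control array, by 0.74 (slides 1.13, 0.68 and 0.40). The difference of Fbp2 was 0.71 with quantile normalization alone and 0.29 under normexp with quantile. Under siRNA 2 Fbp1 differed from the same Control arrays by 0.50 and Fbp2 by 0.42.

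Gfra3, the receptor for artemin, was -1.97, -1.99 and -1.91 in Control and -1.31, -1.12 and -1.23 in siRNA 1, a difference of 0.74 (SE 0.09, limma adjusted p = 0.463). The groups did not overlap. Under siRNA 2 this gene stood nearer to Control, at 0.34, which its choice by smallest p in the siRNA 1 arrays makes likely. For siRNA 2 against siRNA 1 limma's p was 0.0050 before adjustment, with 0 of 22408 genes called in that contrast after it. That p carries the same choice.

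Gadd45g, a growth arrest and DNA damage gene, was 1.92, 1.92 and 1.90 in Control and 2.64, 2.48 and 2.50 in siRNA 1. All siRNA 1 arrays lay above the Control arrays, and the difference was 0.62. Plcd1, a phospholipase C that calcium activates, differed by 0.51. Over the alternative settings Gadd45g ranged from 0.57 to 0.65 and Plcd1 from 0.44 to 0.56. Insm1, a transcription factor of neuroendocrine and neuronal progenitors, was -1.01, -0.94 and -0.96 in Control and -0.32, -0.29 and -0.02 in siRNA 1. Its difference of 0.76 was 1.18 under siRNA 2.

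Larger differences were measured for Calml4, Capn3 and Mymx, which stood over 2-fold higher. Calml4, a calmodulin-like protein, was -2.55, -2.52 and -2.54 in Control and -1.14, -1.57 and -1.75 in siRNA 1. Its difference was 1.05, a fold of 2.07 (SE 0.15, limma adjusted p = 0.503). Pcp4, a small protein that binds calmodulin, differed by 0.75. Capn3, the muscle calpain, a calcium-dependent protease, was -1.33, -0.71 and -1.03 in Control and 0.52, -0.16 and -0.04 in siRNA 1, a fold of 2.19 with slides at 1.85, 0.67 and 0.87 (limma adjusted p = 0.757). Mymx, the microprotein that lets myoblasts fuse, differed by 1.12, with slides at 1.49, 1.04 and 0.84.

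The other higher genes named by smallest p were Fank1, Ldhc, Nlrp4f, Cnga3, Kynu, Nrg4 and Dclk3. Fank1 and Ldhc, which are testis genes, differed by 0.89 and 0.57, and Nlrp4f, of an oocyte gene family, by 0.77. Cnga3, the cone channel gated by cyclic nucleotides, differed by 0.57, Kynu, the kynureninase of tryptophan breakdown, by 0.93, Nrg4, a neuregulin, by 0.54, and Dclk3, a kinase of the doublecortin family, by 0.57. Each of these 7 genes kept its direction on all 3 slides, which their choice by smallest p in these same arrays makes likely. Under normexp with quantile, which adds an offset to every spot, their differences lay between 0.17 for Nrg4 and 0.39 for Kynu. Klhl10, a testis gene, stood 2.33-fold higher, but siRNA 1 replicate 2 at -1.83 set that value, beside -3.32 and -3.71 in the other siRNA 1 arrays and -4.42 to -3.78 in Control.

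**Figure D2:**
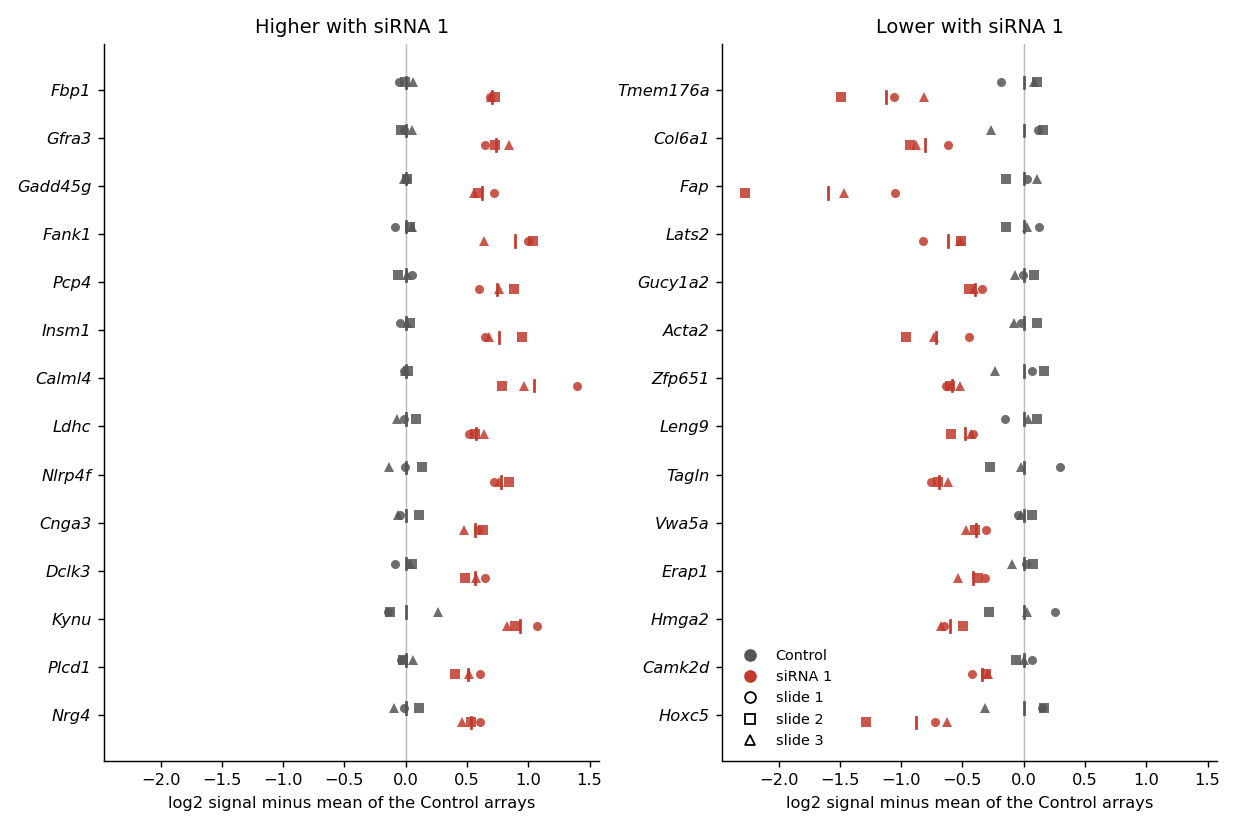
Log2 signal of each array minus the mean of the Control arrays for 14 genes of smallest p in each direction, with 1 point per array, shapes for slides and a bar at each group mean. In all 28 genes the 3 siRNA 1 arrays lie on one side of the 3 Control arrays, which choice by smallest p in these same arrays makes likely.

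Among genes lower with siRNA 1, Tmem176a had the smallest p. It encodes a membrane protein of the same small family as Tmem176b. Tmem176a was -5.05, -4.76 and -4.79 in Control and -5.93, -5.69 and -6.36 in siRNA 1, where it was well above background on 1 of 3 arrays. The measured difference of -1.12 (SE 0.19, limma adjusted p = 0.665) was -1.14 with quantile normalization alone and -0.20 under normexp with quantile. Tmem176b, well above background on all 6 arrays, differed by -0.80, while its second probe differed by -0.13.

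Col6a1, a chain of collagen VI, was -1.74, -1.70 and -2.12 in Control and -2.46, -2.73 and -2.78 in siRNA 1. The groups did not overlap, and the difference was -0.81 with an SE of 0.14, a fold of 1.75 (limma adjusted p = 0.681), with slides at -0.73, -1.08 and -0.61. Fap, the fibroblast activation protein, was well above background on 3 of 3 Control arrays and 0 of 3 siRNA 1 arrays. Its means were -5.46 and -7.06, and against the lowest signal well above background it stood at least 1.61-fold lower with siRNA 1. Both genes are markers of fibroblasts, and the summed level of 6 fibroblast markers lay between 2.05 and 2.23 in Control and between 1.92 and 2.27 in siRNA 1. Thy1 weighs most in that sum, and Fap is too dim to enter it much. Col1a1, Col1a2, Col3a1, Thy1 and Dcn were well above background on all 6 arrays, and the part of fibroblast content in the values of Col6a1 and Fap was not tested.

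Lats2, a kinase of the Hippo pathway, was -2.78, -3.05 and -2.87 in Control and -3.72, -3.42 and -3.41 in siRNA 1. Its difference of -0.62 was -0.33 under normexp with quantile, and its second probe differed by -0.39. Gucy1a2, a subunit of the nitric oxide receptor, differed by -0.40, Hmga2, a chromatin protein of early embryos, by -0.61, and Camk2d, a kinase that calcium and calmodulin activate, by -0.34, with its other probes between -0.42 and -0.26. Hoxc5, a homeobox gene, differed by -0.88 at a level close to background, where 1 of 3 siRNA 1 arrays was well above it. Vwa5a and Erap1, a peptidase that trims peptides for antigen presentation, differed by -0.39 and -0.41, and Leng9 by -0.48. Zfp651, well above background on 1 of 3 siRNA 1 arrays, had a measured difference of -0.58 that was -0.10 under normexp with quantile.

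Genes of the contractile apparatus were mostly lower, and their list had the lowest median of the 34 in the main setting and in 15 of 19 alternatives. Other filters, blocks, another estimate of the spread and a fit of the 6 arrays alone gave the main median again, so they are no separate check. The list was not lowest with array weights, without Control replicate 1, without siRNA 1 replicate 2 or without slide 1, where lists of endoderm or collagen lay lower. Smooth muscle cells share actin, myosin light chains and actin-binding proteins with the stress fibres of many other cells, and serum response factor with its coactivators drives them through a sequence called the CArG box. Of 32 tested contractile genes 27 were lower and 5 higher with siRNA 1, and the median difference was -0.18, beside 0.02 over all genes. In 7 of the 32 (21.9%, against 2.86% of all genes) every siRNA 1 array lay below every Control array, and these were Acta2, Tagln, Myl9, Acta1, Cnn2, Tpm1 and Myocd. In Myl4, the atrial light chain, every siRNA 1 array lay above, by 0.50.

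The 7 genes are 2 actins, a myosin light chain, 3 proteins that bind actin filaments and a coactivator. Acta2, smooth muscle actin, was -1.24, -1.11 and -1.30 in Control and -1.66, -1.95 and -2.17 in siRNA 1. Its difference was -0.71 with an SE of 0.14, a fold of 1.64 (limma adjusted p = 0.794). Tagln, transgelin, was 2.65, 2.09 and 2.34 in Control and 1.60, 1.75 and 1.66 in siRNA 1, a fold of 1.62 (limma adjusted p = 0.863). Myl9, the regulatory light chain of smooth muscle and non-muscle myosin, was 3.39, 2.92 and 3.16 in Control and 2.75, 2.40 and 2.43 in siRNA 1. In these 3 genes no siRNA 1 array reached the lowest Control array, and slides 1 to 3 gave -0.42, -1.06 and -0.65 for Acta2, -1.05, -0.43 and -0.60 for Tagln, and -0.63, -0.49 and -0.75 for Myl9. Acta1, skeletal actin, differed by -0.67, Cnn2, calponin, by -0.31, Tpm1, tropomyosin, by -0.23, and Myocd, the coactivator myocardin, by -0.49, well above background on all 6 arrays. Under siRNA 2, against the same Control arrays, Acta2 differed by -0.34, Tagln by -0.45 and Myl9 by -0.40.

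**Figure D3:**
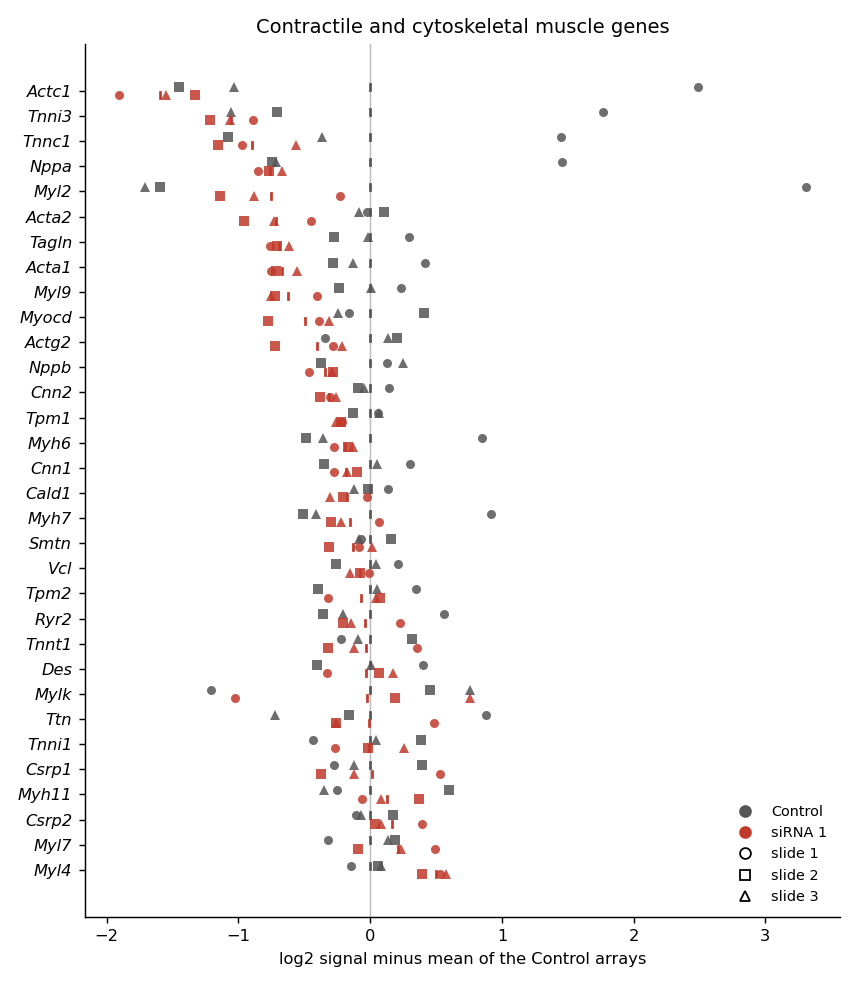
Log2 signal of each array minus the mean of the Control arrays for the 32 tested contractile genes, ordered by difference, with 1 point per array and shapes for slides. Actc1, Tnni3, Tnnc1, Nppa and Myl2 are spread by Control replicate 1 alone, while Acta2, Tagln, Acta1 and Myl9 are lower in all 3 siRNA 1 arrays.

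Several cardiac members of the list behaved otherwise, and they were examined after their values were seen. Actc1, cardiac actin, was 1.02 in Control replicate 1 and between -3.37 and -2.51 in the other Control and siRNA 1 arrays. Myl2, the ventricular light chain, was 1.29 in Control replicate 1 and -3.62 and -3.74 in the other Control arrays, a ratio of 31.2, and the ratio for Actc1 was 13.3. Tnni3, Tnnc1, Nppa, Myh6 and Myh7 were also highest in Control replicate 1, so the low siRNA 1 means of these genes rest on that array. Of the others examined, Ttn was highest there too, at -3.07, while Myl7 and Tnni1 were lowest there, at -5.34 and -5.50. Without Control replicate 1 the difference of Myl2 turned from -0.75 to 0.90, that of Myh6 from -0.19 to 0.23 and that of Myh7 from -0.15 to 0.31. Without that array 20 of the 32 genes were lower and the median was -0.13, and without Control replicate 2 it was -0.29. Within slides 1, 2 and 3 the median was -0.41, -0.17 and -0.01.

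The promoters of the lower contractile genes are shown because all 7 genes lay below Control and the CArG box is the known element of this gene class. RefSeq (build GRCm38.p6) matched 5 of the 7 genes, and Tagln and Myocd are only named. The 250 bases before the start site were searched on both strands for the CArG box in its strict form. That form is CC, then 6 bases that are each A or T, then GG, and it reads as a box on either strand. Matches are in capitals. Stretches that break this pattern at a single base were not counted, such as ccctatatgg and ccttgtttgg in Acta2. The box occurred in Myl9 (chr2:156775214-156775463, plus strand), Cnn2 (chr10:79988350-79988599, plus strand) and Acta1 (chr8:123894776-123895025, minus strand), and these letters were not found in Acta2 (chr19:34255374-34255623, minus strand) or Tpm1 (chr9:67049214-67049463, minus strand). The sequences run 5′ to 3′ on the strand of the gene.
Myl9: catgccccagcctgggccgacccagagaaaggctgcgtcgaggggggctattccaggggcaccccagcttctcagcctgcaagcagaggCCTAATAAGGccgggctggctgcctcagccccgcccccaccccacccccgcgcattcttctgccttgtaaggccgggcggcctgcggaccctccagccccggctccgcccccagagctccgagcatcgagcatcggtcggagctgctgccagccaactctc
Cnn2: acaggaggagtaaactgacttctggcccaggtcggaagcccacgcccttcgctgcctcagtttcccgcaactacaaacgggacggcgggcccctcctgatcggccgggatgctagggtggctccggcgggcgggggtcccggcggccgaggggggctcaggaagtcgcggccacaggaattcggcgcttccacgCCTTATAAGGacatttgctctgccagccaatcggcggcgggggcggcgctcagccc
Acta1: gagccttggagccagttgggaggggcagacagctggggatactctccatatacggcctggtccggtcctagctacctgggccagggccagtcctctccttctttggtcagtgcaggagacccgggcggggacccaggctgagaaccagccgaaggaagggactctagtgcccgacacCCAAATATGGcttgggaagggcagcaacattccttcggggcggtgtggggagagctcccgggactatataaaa
Acta2: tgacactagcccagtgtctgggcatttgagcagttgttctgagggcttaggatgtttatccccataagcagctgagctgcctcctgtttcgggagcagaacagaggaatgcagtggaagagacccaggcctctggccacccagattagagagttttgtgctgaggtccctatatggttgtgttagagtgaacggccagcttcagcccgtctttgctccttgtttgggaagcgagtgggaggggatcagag
Tpm1: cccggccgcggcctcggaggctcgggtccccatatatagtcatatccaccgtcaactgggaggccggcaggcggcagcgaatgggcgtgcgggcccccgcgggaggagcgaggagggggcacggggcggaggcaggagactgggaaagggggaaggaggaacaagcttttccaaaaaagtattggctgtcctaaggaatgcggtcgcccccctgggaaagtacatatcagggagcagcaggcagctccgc
In Myl9 the box began 161 bases before the start, in Acta1 73 bases and in Cnn2 56 bases. Over the whole contractile list 6 of 27 promoters (22.2%) held the box, beside 191 of 12332 promoters of the genes tested (1.55%) and 439 of 27025 in the whole table (1.62%). The search was made after the values were seen, and a match describes the letters only.

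Genes of naive pluripotency were mostly higher, and the size of their difference depended on the slide. Their median was the highest of the lists in the main setting and in 17 of 19 alternatives, several of which leave it unchanged, as for the contractile list. It was not the highest without siRNA 1 replicate 1 or without slide 1, where the genes of the 2-cell-like state lay higher. These genes, such as Esrrb, Zfp42 and Klf4, hold stem cells in the ground state and are shut off as embryoid bodies form. Of 24 tested members 21 were higher and 3 lower with siRNA 1, with a median of 0.41. Within slide 1 the median was 0.69, within slide 2 it was -0.14 and within slide 3 it was 0.32. It was 0.18 without siRNA 1 replicate 1 and 0.11 without slide 1. Esrrb shows the pattern, at 0.90, 2.16 and 1.07 in Control and 2.77, 1.74 and 1.73 in siRNA 1, so that the Control array of slide 2 was higher than 2 of the 3 siRNA 1 arrays.

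In 4 of the 24 naive genes (Fgf4, Gbx2, Zfp57 and Nanog) all siRNA 1 arrays lay above all Control arrays, beside 4.78% of all genes. Each was higher with siRNA 1 on every slide. Fgf4, the growth factor that pushes stem cells out of the naive state, was 3.33, 3.40 and 3.28 in Control and 3.78, 3.63 and 3.83 in siRNA 1. Its difference was 0.41 with an SE of 0.09 (limma adjusted p = 0.849), and under siRNA 2 it was 0.45. Nanog, a core factor of pluripotency, was -3.24, -2.98 and -2.99 in Control and -2.75, -2.69 and -2.70 in siRNA 1, a difference of 0.36, and under siRNA 2 it differed by 0.09. Gbx2, a homeobox gene that sustains self-renewal, differed by 0.40 and Zfp57, which protects imprinted methylation, by 0.42. Klf4 differed by 1.88 on slide 1 and by -0.68 on slide 2. Tcf15, a factor of cells primed to leave the naive state, was 0.38 higher with no overlap, while the list of core and formative pluripotency genes it belongs to had a median of 0.05, which was 0.04 with quantile normalization alone, -0.02 under normexp with quantile and -0.02 without Control replicate 2. The summed level of the 5 pluripotent markers lay between 5.01 and 5.14 in Control and between 5.14 and 5.51 in siRNA 1. Pou5f1 weighs most in that sum, whose part in the values of other genes was not tested.

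Genes of the 2-cell-like state, a rare and passing state in which stem cells express genes of the early embryo, stood higher with siRNA 1 and lower with siRNA 2, against the same Control arrays. Of 22 listed genes 15 were tested, of which 13 were higher and 2 lower, with a median of 0.28 and slides at 0.44, 0.16 and 0.09. The median was 0.19 without siRNA 1 replicate 1, 0.14 without slide 1 and 0.14 under normexp with quantile. Zscan4a, whose family lengthens telomeres in that state, was 1.30, 1.49 and 1.49 in Control and 2.15, 1.62 and 1.65 in siRNA 1, and Zscan4a was 1.26 and 1.31 in siRNA 2. Usp17lb, a deubiquitinase gene, was -3.47, -3.53 and -3.48 in Control, -2.96, -3.38 and -3.25 in siRNA 1 and -3.93 and -4.41 in siRNA 2. For 10 of the 15 genes both siRNA 2 arrays lay below all 3 siRNA 1 arrays, beside 11.9% of all genes, a count made after the values were seen. In limma's contrast of siRNA 2 against siRNA 1 none of the 15 was called, with a smallest adjusted p of 0.978. The median against Control was -0.28 under siRNA 2, which has no array on slide 2. Zscan4, Usp17l and Tcstv genes form families of near-identical copies, so their probes may read several members at once and are not independent.

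**Figure D4:**
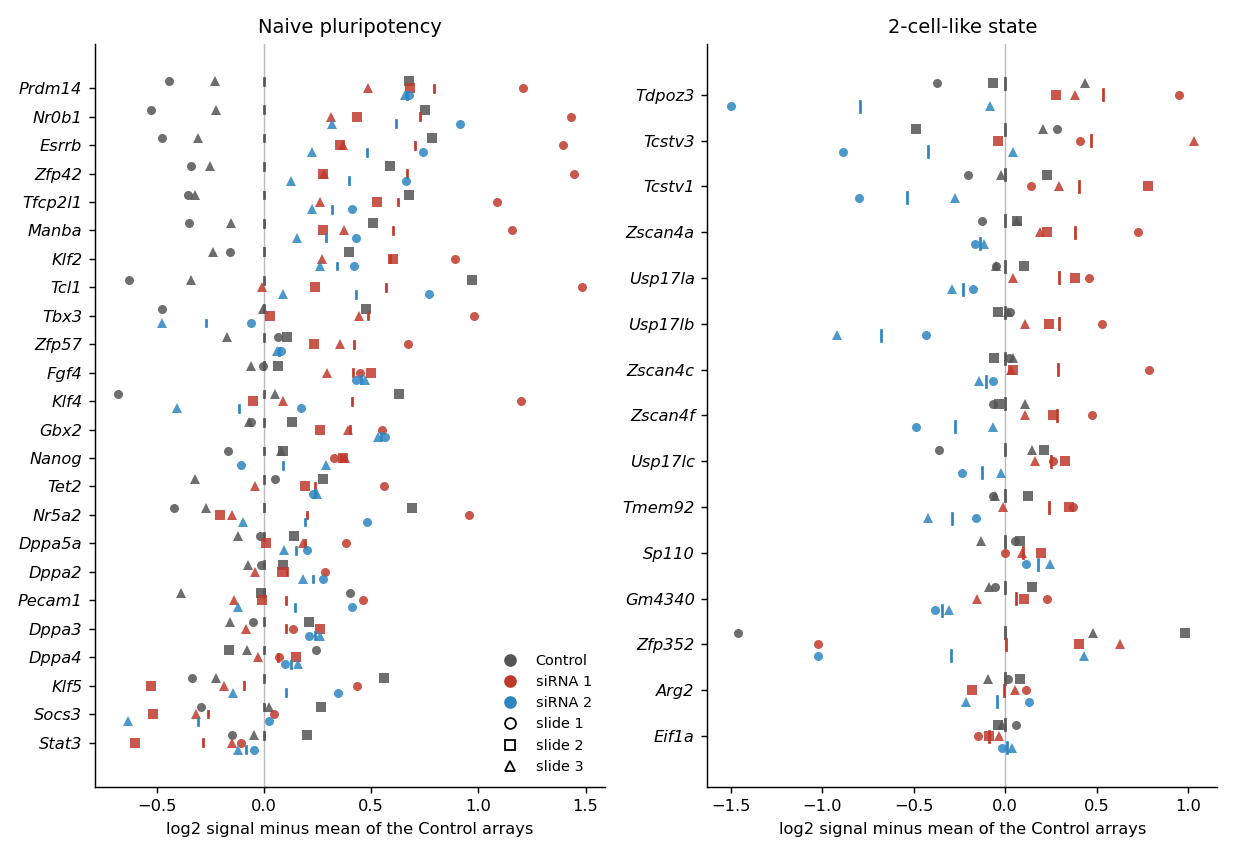
Log2 signal of each array minus the mean of the Control arrays for 24 naive pluripotency genes (left) and 15 genes of the 2-cell-like state (right), with 1 point per array of Control, siRNA 1 and siRNA 2 and shapes for slides. The median of the naive genes is highest in siRNA 1 replicate 1 on slide 1, and among the Control arrays in Control 2 on slide 2. Single genes depart from this, such as Fgf4, which is highest in siRNA 1 replicate 3.

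Lists of the germ layers leaned in both directions, with values that differed between slides. In primitive and visceral endoderm, the first endoderm of the embryo and of embryoid bodies, 14 of 41 genes were higher and 27 lower, with a median of -0.14 that was 0.12 on slide 1, -0.33 on slide 2 and -0.24 on slide 3. The median moved with single arrays, at -0.00 without Control replicate 3, -0.33 without siRNA 1 replicate 2 and -0.29 without Control replicate 1. Of these 41 no gene had all siRNA 1 arrays below all Control arrays, beside 2.86% of all genes. Rhox5 and Trf had all above, by 0.26 and 0.16, beside 4.78% of all genes. Ihh, a hedgehog ligand of visceral endoderm, was -2.53, -2.07 and -1.87 in Control and -2.66, -2.53 and -2.88 in siRNA 1. The summed level of 9 visceral endoderm markers, in which Cubn weighs most, lay between 2.32 and 3.35 in Control and between 2.42 and 3.13 in siRNA 1. Of 26 collagen and basement membrane genes 20 were lower, with a median of -0.14, which was 0.08 on slide 1 and -0.33 and -0.22 on slides 2 and 3. Without Control replicate 3 that median was -0.05, without Control replicate 1 it was -0.21 and without siRNA 1 replicate 1 it was -0.22. Of 20 fibroblast genes 16 were lower, with a median of -0.08 that was -0.20 without siRNA 1 replicate 1.

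Endothelial and blood progenitor genes leaned higher, with 14 of 17 higher and 3 lower and a median of 0.10, which lay between 0.03 without siRNA 1 replicate 2 and 0.13 over the 19 alternatives and was -0.02, 0.01 and 0.15 on the 3 slides. Tek, the receptor for angiopoietins, had all siRNA 1 arrays above all Control arrays, by 0.34, while Flt1, a receptor for VEGF, and Hbb-y, an embryonic globin, had all below, by -0.33 and -0.26. Over all genes these shares were 4.78% above and 2.86% below. In neuroectoderm 16 of 25 genes were higher (64.0%, beside 55.3% of all genes) and 9 lower. The median of 0.04 turned to -0.01 without siRNA 1 replicate 2. Lhx2, a homeobox gene of forebrain and eye, was -2.27, -2.10 and -2.02 in Control and -1.60, -1.76 and -1.85 in siRNA 1, a difference of 0.39.

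In primitive streak and mesoderm 13 of 30 genes were higher and 17 lower, with a median of -0.08 that was -0.16 without siRNA 1 replicate 3 and turned to 0.02 without slide 1. Fgf8, the growth factor that cells need to leave the streak, was the member with the largest difference among those without overlap. It was 0.98, 0.08 and 0.68 in Control and -0.71, 0.07 and -0.06 in siRNA 1, so the gap between the groups was narrow. The difference of -0.82 (a fold of 1.76) was made of -1.69 on slide 1, -0.15 on slide 2 and -0.61 on slide 3, a second probe gave -0.75, and without slide 1 it was -0.38. Eomes, a factor of mesendoderm, differed by -1.04 on slide 1, 0.03 on slide 2 and -0.35 on slide 3, and Trh, the precursor of thyrotropin-releasing hormone, by -1.33, 0.03 and -0.43. T, the streak gene brachyury, went from -1.95 on slide 1 to 0.74 on slide 2. The summed level of the 5 streak markers lay between 1.45 and 1.95 in Control and between 0.84 and 1.51 in siRNA 1. Eomes weighs most in that sum, at 1.35 to 1.77 in Control and 0.73 to 1.38 in siRNA 1. Of 21 Wnt ligands and targets 14 were lower, with a median of -0.14 that was -0.03 without siRNA 1 replicate 1 and turned to 0.06 without slide 1.

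Hippo pathway genes leaned lower on each slide. The pathway's kinases Lats1 and Lats2 hold the coactivator Yap1 out of the nucleus, and Tead factors carry its output. Of 20 tested genes 14 were lower and 6 higher, with a median of -0.09, slides at -0.03, -0.16 and -0.09, and -0.14 without siRNA 1 replicate 1. Of these, 4 had all siRNA 1 arrays below all Control arrays, beside 2.86% of all genes. They were Lats2, Ajuba (a scaffold that restrains Lats kinases), Mob1b (a cofactor of Lats kinases) and Axl (a receptor kinase and Yap target). Ajuba was 2.77, 2.55 and 2.53 in Control and 2.28, 2.30 and 2.38 in siRNA 1, a difference of -0.30. Axl differed by -0.34 and Mob1b by -0.30. The coactivator Yap1 itself differed by -0.10, and its target Ccn1 by -0.35, with overlapping groups.

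Among immediate early genes and targets of serum response factor, which respond within minutes to growth factors, 12 were higher and 17 lower with a median of -0.01. In 5 of these 29 genes all siRNA 1 arrays lay below all Control arrays, beside 2.86% of all genes. They were Fosl2 (-0.46), Zfp36 (-0.42), Spred1 (-0.40), Spry2 (-0.24) and Fosl1 (-0.15). Spred1 and Spry2 are feedback inhibitors of growth factor signalling to ERK. Srf differed by -0.21, with 0.13 on slide 3. Among the genes of Akt, the mTOR complexes and the COG complex of the Golgi, to which the variant has been linked, 9 were higher and 14 lower with a median of -0.03. Akt1 was 2.80, 2.66 and 2.66 in Control and 2.40, 2.58 and 2.49 in siRNA 1. Foxo4, a transcription factor that Akt restrains, differed by -0.44 and Mlst8, a subunit of both mTOR complexes, by -0.11. In these 3 of the 23 genes all siRNA 1 arrays lay below all Control arrays, beside 2.86% of all genes. Cog7 stood 0.19 higher without overlap, and Rictor and Mapkap1, which define mTORC2, differed by -0.01 and 0.05.

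Metabolic genes gave small differences. Of 32 genes of glycolysis and hypoxia 23 were higher and 9 lower, with a median of 0.11 that was 0.04 with quantile normalization alone, 0.05 under normexp with quantile and 0.06 without siRNA 1 replicate 1. Aldoa, an aldolase, was 0.19 higher without overlap, and Ldha, lactate dehydrogenase, differed by 0.16. Of 52 cytosolic ribosomal proteins 48 were higher with a median of 0.10. All siRNA 1 arrays lay above all Control arrays in 14, beside 4.78% of all genes and 6.16% of the brightest 4482. But quantile normalization alone left 24 higher and 28 lower, and normexp with quantile 25 higher and 27 lower. Their probes can read the many processed copies of these genes. Of 30 genes of cholesterol and fatty acid synthesis 13 were higher and 17 lower, with a median of -0.33 on slide 1 and 0.20 on slide 2.

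Nqo1, a quinone reductase induced by NRF2, was among the most even differences of the comparison. It was -1.47, -1.46 and -1.50 in Control and -1.11, -1.18 and -1.15 in siRNA 1, and it stood at -0.83 and -0.84 in siRNA 2. The difference of 0.33 (SE 0.07, limma adjusted p = 0.863) was 0.36, 0.31 and 0.32 on slides 1 to 3. Fth1 and Ftl1, the ferritin chains that store iron and are also NRF2 targets, were higher by 0.26 and 0.32 without overlap. The whole list of 22 NRF2 genes had a median of 0.04, with 13 higher (59.1%, beside 55.3% of all genes) and 9 lower.

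Short RNAs can set off the interferon response, and 31 of its genes and sensors were listed. Of the 22 tested 15 were higher (68.2%, beside 55.3% of all genes) and 7 lower. The median of 0.05 was 0.25 on slide 1 and -0.17 on slide 2, 0.17 without Control replicate 2 and 0.01 without siRNA 1 replicate 1. In 4 of the 22 every siRNA 1 array lay above every Control array, beside 4.78% of all genes. Cxcl10, a chemokine induced by interferon, was -5.10, -5.03 and -5.02 in Control and -4.78, -4.21 and -4.09 in siRNA 1, a difference of 0.69 that was 0.17 under normexp with quantile, and under siRNA 2 it was 0.05. Oasl1 and Oas1a, of the oligoadenylate synthetase family, differed by 0.49 and 0.44, and Stat2 by 0.19. Psmb8, a subunit of the immunoproteasome, stood 0.44 lower. Of 13 genes of the RNA interference machinery 5 were higher and 8 lower, with Dicer1 at -0.14 and Ago3 at -0.29.

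Other lists were near the background of all genes or changed sign between slides. Trophectoderm genes had a median of 0.46 on slide 1 and -0.28 on slide 2, and 0 of 16 had groups that did not overlap, beside 4.78% and 2.86% of all genes. Germ cell genes had a median of 0.36 on slide 1 and -0.07 on slide 2. Of 22 p53 and DNA damage targets 11 were higher and 11 lower. Cell cycle genes had a median of -0.03, and 11 of 34 were higher. Among imprinted genes Phlda2, a brake on placental growth, differed by 0.32 and Nnat, neuronatin, by 0.40, both without overlap. Id3, a target of BMP signalling, was 2.48, 2.23 and 2.49 in Control and 2.19, 2.17 and 2.10 in siRNA 1.

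**Figure D5:**
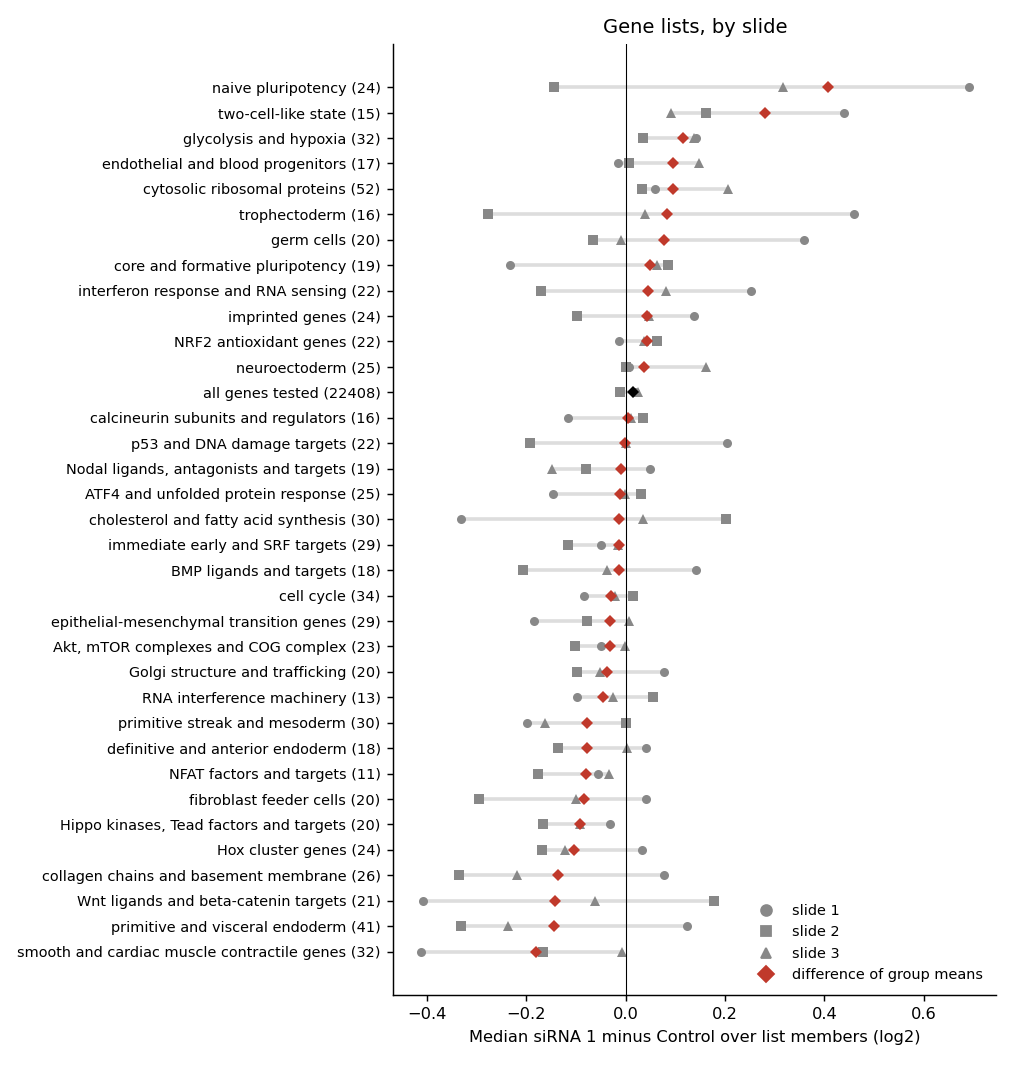
Median log2 difference between siRNA 1 and Control over the tested members of each of 34 gene lists and over all genes (number tested in parentheses), with grey shapes for the difference within each slide and diamonds for the difference of group means. The medians of naive pluripotency, trophectoderm and Wnt genes spread most between slides, and the ribosomal median of 0.10 turns to -0.00 with quantile normalization.

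The 3 slides gave different answers for many genes. Across the 22408 genes, the differences within slide 1 and slide 2 were related with a Pearson's r of -0.35, those within slides 1 and 3 with 0.18, and those within slides 2 and 3 with 0.06. These values describe genes within 6 arrays, and genes are not independent replicates. The difference had one sign on all 3 slides in 2824 genes that were higher and 1859 that were lower. Against the mean of the Control arrays, the median deviation of the 24 naive genes was -0.23, 0.34 and -0.16 in the Control arrays and 0.61, 0.22 and 0.24 in the siRNA 1 arrays, so the Control arrays were spread as widely as the groups differed. For the 41 genes of primitive and visceral endoderm it was -0.38, 0.01 and 0.29 in the Control arrays and -0.24, 0.02 and -0.32 in siRNA 1. With slide as a block over the 8 arrays limma called 0 genes at a smallest adjusted p of 0.717, and 896 genes had an unadjusted p under 0.05.

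Both siRNAs share the Control arrays, so their differences from Control are given side by side without a measure of likeness. No siRNA 2 array lay on slide 2, so differences of siRNA 2 from Control or from siRNA 1 are not balanced over slides. The part of slides in those differences was not tested. For the genes higher with siRNA 1, Calml4 was 1.05 under siRNA 1 and 0.89 under siRNA 2, Gadd45g 0.62 and 0.60, Capn3 1.13 and 0.66, and Mymx 1.12 and 0.52. For the lower genes, Tmem176a was -1.12 and -0.85, Col6a1 -0.81 and -0.55, Lats2 -0.62 and -0.49, and Fgf8 -0.82 and -1.36. Spopfm2 was higher under siRNA 1 by 1.03 and differed by -0.47 under siRNA 2. All these genes were chosen by their siRNA 1 values, which makes smaller differences under siRNA 2 likely. In limma's contrast of siRNA 2 against siRNA 1, 0 of 22408 genes were called, the smallest adjusted p was 0.541 and 778 genes had an unadjusted p under 0.05.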

How the data were processed

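Total RNA had been labelled with Cy3 and hybridised to 1-colour Agilent arrays, per the labels' protocols. The deposited scanner files hold spot intensity values, which per the file headers the authors had extracted and background-corrected in Agilent Feature Extraction, version 10.7.3.1. A deposited value table holds log2 values, which follow the scanner files as log2 signal minus the 75th percentile, each probe centred over the 8 arrays, with column medians from -0.04 to 0.02. Its direction is that of the signal. RMA is named, without a role, in the submitters' processing notes.

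Control spots and spots flagged as outliers were dropped, spots of a probe were averaged on the log2 scale, and 29 probes with no spot left on an array were not used. Each array was scaled on the 75th percentile over probes, chosen over that of spots after the data were seen, since it matches the value table. Of 39429 probes 26424 were named through RefSeq accessions (GRCm38.p6), and 13005 are unnamed here. The array design uses mm9, so no array coordinates are given. A gene was represented by its probe of highest mean and tested where 1 or more groups had it well above background throughout, giving 22408 genes, 15556 with a symbol.

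limma 3.58.1 (R 4.3.3, statmod 1.5.0) fitted the 3 groups over 8 arrays with 5 residual and 2.13 prior degrees of freedom, and p-values were adjusted over all genes by Benjamini-Hochberg. The fit was tested on simulated data. A gene not well above background in a group is given as a bound, the brighter group's mean against the other's, with signals under an array's faintest one well above background raised to that one (normalized log2 values). Lists were made in Python 3.11.15 with pandas 2.3.3 and numpy 2.4.6. Plots were drawn with matplotlib 3.10.9.

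The comparison, the 34 gene lists and the tests were chosen with earlier results of these data known, so lists carry counts and medians only. Genes are named if they belong to the calcineurin list, are among the 15 of smallest p in a direction (2 of these 30 are not reported here), are among the 10 largest per direction with no overlap and one sign on all slides, or are list members without overlap that differ by at least 0.5, otherwise the 2 of smallest p in the list. Other genes were named after their values were seen, among them the cardiac genes, Esrrb, Klf4, T, Yap1, Ccn1, Srf, Rictor, Mapkap1, Ldha and list members without overlap that differ by less than 0.5. By the scanner files' numbers, deviations of same-numbered arrays correlated at 0.33, 0.01 and 0.05 for numbers 1 to 3. For arrays of slides 1 to 3 these correlations were 0.33, 0.04 and 0.56. With the value table's columns of Control 2 and 3 instead, each replicate number falls on its own slide. Whether replicate numbers pair the arrays is therefore not settled. Alternatives were other scalings, background correction and filters, the value table, every probe, blocks, array weights and leaving arrays out.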

Additional observations from a re-analysis of the deposited data

How the results depend on the processing

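limma called 0 genes under the main setting and under each of 20 alternatives, of which the 75th percentile over spots was chosen after seeing the data. The smallest adjusted p was 0.400 in the main setting and ranged over the alternatives from 0.0599 with array weights, whose estimation stopped before convergence, to 1.00. Genes at an unadjusted p under 0.05 numbered 748, and 2774 with array weights, 1320 without Control replicate 2, 468 with median scaling and 788 with the percentile over spots. Leaving out 1 array at a time gave 518 to 1320, and leaving out slide 1 gave 826. The replicate block, by the scanner files' numbers, gave 687 such genes and 0 called genes, and the block changed no call. With the value table's numbers that block would be the slide block. Among the genes named by the rule 13 turned sign in at least 1 of the 19 alternatives refitted gene by gene, all 13 of them calcineurin genes with differences between -0.23 and 0.11. Of the other genes named after their values were seen 48 were checked in this way, and 13 turned too, among them Myl2, Myh6, Myh7, Nppa, Klf4, T and Srf. Lists whose median turned with another scaling were the calcineurin list, core and formative pluripotency, p53 targets and ribosomal proteins. Groups of 3 arrays are too small for a test of single arrays. Dim genes are measured least firmly, and the difference of Tmem176a went from -1.12 to -1.14 with quantile normalization alone and to -0.20 with normexp followed by quantile normalization.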

Other observations

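In the deposited value table the column of Control 2 followed the scanner file of Control 3, and the reverse, with r of 1 across probes against the other array and -0.05 against the named one. Both belong to Control, so group means do not depend on it, and slides and replicate numbers were read from the scanner files.

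Genes were also divided into 5 equal bins by mean signal, after their values were seen. In the dimmest bin of 4482 genes the median difference was 0.09 on slide 1, -0.11 on slide 2 and 0.06 on slide 3. In the brightest bin it was -0.02, 0.04 and 0.03, and 6.16% of genes there had all siRNA 1 arrays above all Control arrays. With quantile normalization the median of all 5 bins lay at -0.00.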
